A study of Arabidopsis thaliana with 6 samples.

Results

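The RAP2.4 clade is group A-6 of the DREB transcription factors of Arabidopsis thaliana, the genes numbered ERF053 to ERF062. Its 10 members were taken by gene identifier and not by their measured values, but with earlier results of these data known. Of them, 7 were among the 11167 genes of the deposited table. ERF53 (AT2G20880), AT4G28140 and AT5G65130 had no row and were not analysed here. The 7 were RAP2.4 (AT1G78080), AT1G22190, AT1G36060, AT4G39780, AT1G64380, AT2G22200 and AT4G13620. RNA came from whole seedlings of the *flu* 1-1 mutant, 2 weeks old and in the Col-0 background, kept in water in the dark for 4 h (3 libraries) or 0 h (3 libraries) and then given 30 min of light at 30 µE. Both groups carried the mutation, so genotypes were not compared. No group spent 4 h in the light. Darkness, any singlet oxygen formed in the light after it, time in water and time of day cannot be told apart.

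DREB proteins hold 1 AP2/ERF domain, through which they bind the dehydration-responsive element (DRE) in promoters, and many of them act in drought, salt, cold and wounding. RAP2.4, also called WIND1, promotes callus formation at wound sites and is known as a gene whose transcript is lower in light and higher under salt and drought. AT1G22190 (WIND2) is its closest duplicate, and the pair has been tied to the expression of aquaporin genes. AT1G36060 (WIND3, RAP2.4a, TRANSLUCENT GREEN) is a redox-sensitive factor that acts on the gene for chloroplast 2-Cys peroxiredoxin A. The FLU protein restrains the first step of chlorophyll synthesis in darkness, and without it protochlorophyllide accumulates in the dark and produces singlet oxygen once light returns.

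In the RefSeq annotation of the TAIR10.1 assembly, the longest transcript model of each of the 10 genes has 1 exon. Other models were not counted. None of the 10 genes overlaps another annotated gene. RAP2.4 lies on chromosome 1 from 29364072 to 29366207 on the plus strand, with a transcript of 2136 bases. AT1G22190 spans 7835781 to 7837411 of the same chromosome, also on the plus strand (1631 bases), and AT1G36060 spans 13454496 to 13456336, minus strand (1841 bases). The 250 bases before the annotated start of these 3 genes, the members with the most reads, are printed because these members carry most of the clade's signal. They are given 5′ to 3′ on each gene's own strand, with capitals for matches to the motifs searched.
RAP2.4, chr1:29363822-29364071, plus strand: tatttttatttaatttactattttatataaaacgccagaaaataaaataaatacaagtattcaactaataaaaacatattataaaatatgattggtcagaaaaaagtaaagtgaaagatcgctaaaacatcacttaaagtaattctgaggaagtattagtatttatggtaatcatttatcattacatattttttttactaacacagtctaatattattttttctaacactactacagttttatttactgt
AT1G22190, chr1:7835531-7835780, plus strand: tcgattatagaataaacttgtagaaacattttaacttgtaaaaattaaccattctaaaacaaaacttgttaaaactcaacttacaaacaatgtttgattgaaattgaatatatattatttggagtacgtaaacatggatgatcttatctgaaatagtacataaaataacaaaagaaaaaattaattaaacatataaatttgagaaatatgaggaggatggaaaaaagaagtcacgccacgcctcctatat
AT1G36060, chr1:13456337-13456586, minus strand: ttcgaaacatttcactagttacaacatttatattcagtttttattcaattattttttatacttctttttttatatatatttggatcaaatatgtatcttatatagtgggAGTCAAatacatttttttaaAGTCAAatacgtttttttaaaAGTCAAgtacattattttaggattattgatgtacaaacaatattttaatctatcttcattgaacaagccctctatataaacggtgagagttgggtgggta

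In the AT1G36060 sequence the capitals mark 3 copies of AGTCAA, which is the W-box core TTGACT read from the other strand, at 141, 121 and 100 bases before the start. The RAP2.4 and AT1G22190 windows held none of the 9 motifs searched on both strands in the 300 bases from 250 before to 50 after the start. Their upstream stretches had GC contents of 20.4% and 25.2%. Over the 10 clade promoters, the DRE core ACCGAC was in 0 (5.7% of 27443 promoters held it) and its variant GCCGAC in 1, that of ERF53 (3.28%). The GCC box GCCGCC was in 1, that of AT4G39780, 11 bases after the start (2.57%). The W-box cores were TTGACT in 3, those of AT1G36060, AT5G65130 and AT1G64380 (21.8%), and TTGACC in 1, that of AT4G13620 (14.2%). The rapid stress response element CGCGTT was in 2, AT4G28140 and AT5G65130 (3.4%), the evening element AAATATCT in 2, ERF53 and AT4G28140 (5.65%), GAANNTTC in 1, ERF53 (11.6%), and the G-box CACGTG in 0 (7.68%). The DRE cores share the letters CCGAC and the W-box cores TTGAC. A match is a description of the letters and not of a bound site.

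The libraries held between 1012425 and 2185464 reads assigned to genes in the 4 h group and between 1487666 and 1924910 in the 0 h group. Levels are given as CPM, the reads of a gene scaled to equal library totals after TMM correction. The limit set by 3 reads was 1.37 to 2.97 CPM, counting error only. Of 10622 genes tested, 16.6% were called at an adjusted p of 0.05, 8.37% higher and 8.18% lower after 4 h. Replicate 3 of the 4 h group was set off from its group by the second principal component (40.1, with -15.0 and -28.8 for the other 4 h libraries). The value without it is given where it changes the call of a clade member, or of another DREB factor or process gene named below. Summed leaf markers overlapped between groups at 37564 to 47458 CPM after 4 h and 39759 to 45688 CPM after 0 h, with 0 of 5 higher and 1 lower. RBCS1A and CAB1 made up most of that sum, so it says little of the other leaf markers. Of the 5 leaf markers 4 had estimates below 0, with a median log2 fold change of -0.61, against -0.06 over all genes tested. Summed root markers overlapped too (107 to 210 and 133 to 209 CPM), with 1 of 5 higher and 1 lower, and 4 of 5 estimates below 0 (median -0.48). Of the phloem markers 1 of 2 was lower, SUC2 (log2 fold change -0.63), while APL went the other way and was not called (0.25). The sum of both did not overlap, at 163 to 179 CPM after 4 h and 217 to 270 CPM after 0 h. SUC2 made up most of that sum, so it says little of APL. The part of these markers in the results was not tested. The guard cell marker FMA stood at 26.2 to 31.6 and 22.0 to 34.9 CPM, and the 4 seed and 3 flower markers were not analysed here. In bulk RNA, fewer cells of a type and less RNA per cell cannot be told apart.

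RAP2.4 had the most reads of the clade and the smallest adjusted p. It had 817, 380 and 358 reads in the 4 h libraries and 284, 308 and 269 in the 0 h libraries, which is 372, 343 and 354 CPM after 4 h against 174, 158 and 185 CPM after 0 h. Every 4 h library lay above every 0 h library. The mean was 356 ± 14.5 CPM after 4 h and 172 ± 13.6 CPM after 0 h (SD, n = 3 each). RAP2.4 rose 2.07-fold (95% interval 1.67 to 2.57, log2 fold change 1.05, SE 0.15, adjusted p = 1.73e-05 by edgeR's quasi-likelihood test). Among the 889 genes that rose it was number 77 by p and number 264 by size of change. Replicate spread was small, with a coefficient of variation of 4.06% after 4 h, where counting alone gives 4.71%, and of 7.91% after 0 h, where counting gives 5.91%.

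**Figure D1:**
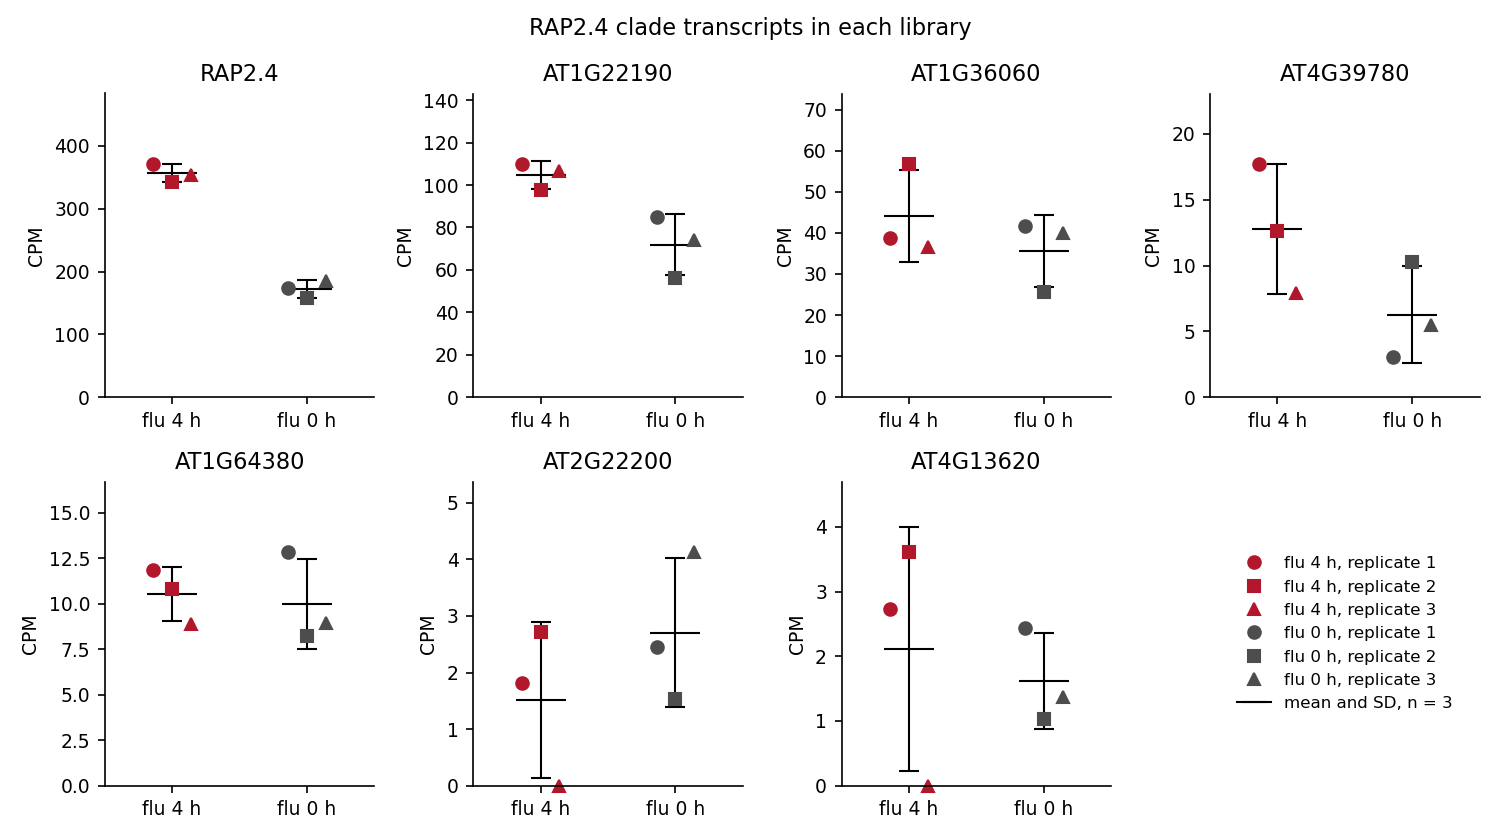
CPM of the 7 measured RAP2.4 clade members in each library, *flu* 4 h left of *flu* 0 h, with points for single libraries and black lines for the mean and SD of each group. RAP2.4 (343 to 372 against 158 to 185 CPM) and AT1G22190 (97.5 to 110 against 56.4 to 85.0 CPM) are the members whose groups do not overlap.

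AT1G22190, the close duplicate of RAP2.4, came next by reads and had a smaller fold change. It had 242, 108 and 108 reads after 4 h and 139, 110 and 108 reads after 0 h, or 110, 97.5 and 107 CPM against 85.0, 56.4 and 74.3 CPM. The groups did not overlap, although the highest 0 h library lay close below the 4 h libraries. The mean was 105 ± 6.53 CPM after 4 h and 71.9 ± 14.4 CPM after 0 h (SD, n = 3 each), a 1.47-fold rise (1.13 to 1.91, log2 fold change 0.55, SE 0.18, adjusted p = 0.0396 by edgeR). The 0 h libraries varied with a coefficient of variation of 20.1% (9.23% from counting), against 6.23% in the 4 h libraries (8.69% from counting). This call sat near the threshold. It was held when 0 h replicate 1 was left out (0.69, adjusted p = 0.036) and lost without any other single library, at 0.42 without 0h replicate 2 (adjusted p = 0.149), 0.58 without 0h replicate 3 (0.0608), 0.52 without 4h replicate 1 (0.111), 0.61 without 4h replicate 2 (0.0611) and 0.54 without 4h replicate 3 (0.0831), all by edgeR.

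The coding sequences of RAP2.4 and AT1G22190 (1005 and 786 bases) were identical at 82.2% of 735 aligned bases, the highest of the 21 pairs of measured members (62.6% to 82.2%). Their transcripts shared a run of 46 bases at most, and whether reads fell in that stretch was not tested. The next closest pair was AT2G22200 and AT4G39780, with 78% over 705 bases and a longest shared run of 25 bases.

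AT1G36060, the redox-sensitive member, did not pass the test. It had 85, 63 and 37 reads after 4 h and 68, 50 and 58 after 0 h, or 38.7, 56.9 and 36.6 CPM against 41.6, 25.6 and 39.9 CPM. The groups overlapped, with 1 high library after 4 h and 1 low library after 0 h. Means were 44.1 ± 11.2 and 35.7 ± 8.76 CPM (SD, n = 3 each), and the fold change of 1.23 had an interval of 0.878 to 1.73 (log2 0.30, SE 0.24, adjusted p = 0.439 by edgeR). The fitted 2.07-fold change of RAP2.4 lay outside that interval. RAP2.4's own interval (1.67 to 2.57) overlapped it, so these intervals do not settle whether both genes changed by different amounts.

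AT4G39780 (ERF060, chromosome 4, 18457906 to 18459257, minus strand) had as large a fold change as RAP2.4 at far lower counts. Its reads were 39, 14 and 8 after 4 h and 5, 20 and 8 after 0 h, or 17.7, 12.6 and 7.91 CPM against 3.06, 10.3 and 5.50 CPM. The groups overlapped, since the highest 0 h library exceeded the lowest 4 h library. The mean was 12.8 ± 4.92 CPM after 4 h and 6.27 ± 3.66 CPM after 0 h (SD, n = 3 each). The log2 fold change of 1.05 (SE 0.42, interval 0.18 to 1.92) did not pass the test (adjusted p = 0.0937 by edgeR). Without 0h replicate 2 it was 1.68 and passed (adjusted p = 0.0169 by edgeR), and over single libraries left out it ranged between 0.68 and 1.68.

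**Figure D2:**
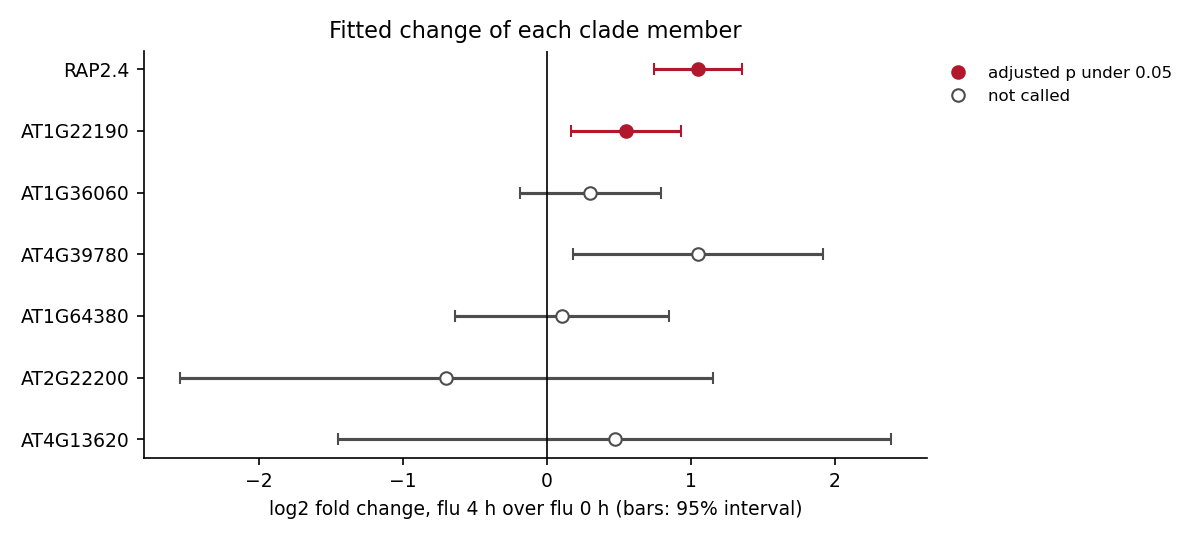
Log2 fold change, *flu* 4 h over *flu* 0 h, of each measured clade member with its 95% interval from the edgeR fit. RAP2.4 (1.05) and AT1G22190 (0.55) passed the test, AT4G39780 (1.05) had a wide interval from 0.18 to 1.92, and the other 4 members had intervals that include 0.

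The remaining 3 members were read rarely. AT1G64380 (ERF061, chromosome 1, 23890570 to 23892193, minus strand) had 26, 12 and 9 reads after 4 h and 21, 16 and 13 after 0 h, or 11.8, 10.8 and 8.90 CPM against 12.8, 8.21 and 8.95 CPM. Its groups overlapped, and the log2 fold change of 0.10 had an interval of -0.64 to 0.85 (adjusted p = 0.885 by edgeR), with a sign that turned under other settings. AT4G13620 (ERF062, chromosome 4, 7932131 to 7933579, plus strand) had 6, 4 and 0 reads after 4 h and 4, 2 and 2 after 0 h. AT2G22200 (ERF056, chromosome 2, 9443073 to 9444428, minus strand) had 4, 3 and 0 reads after 4 h and 4, 3 and 6 after 0 h. Both had at most 6 reads in any library, and the intervals of their log2 fold changes (-1.45 to 2.39 for AT4G13620 and -2.55 to 1.16 for AT2G22200) leave a change not detectable at this depth.

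Of the 7 members in the table all were tested, and 2 (RAP2.4 and AT1G22190) were called higher and 0 lower, beside 8.37% of all genes higher and 8.18% lower. Their groups did not overlap in 2 of 7 cases, against 32.3% of all genes. The estimate was above 0 for 6 members and below 0 for 1, with a median log2 fold change of 0.47, against -0.06 over all genes tested. That median is the estimate of AT4G13620, which has few reads and lay between 0.12 and 0.92 with single libraries left out. At an unadjusted p under 0.05 in edgeR 3 were higher and 0 lower, DESeq2 called 1 higher and 0 lower, and limma-voom called 2 higher and 0 lower.

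RAP2.4 made up most of the clade's reads. The summed level of the 7 members was 555, 527 and 514 CPM after 4 h and 321, 261 and 319 CPM after 0 h, without overlap. RAP2.4 took 67, 65.1 and 68.8% of these reads after 4 h and 54.1, 60.5 and 58% after 0 h. Divided by transcript length its share was 60.8, 59.1 and 63.2% after 4 h and 47.9, 54 and 51.7% after 0 h. The libraries capture transcript 3′ ends, so reads need not grow with transcript length, and the division is a description and no correction. AT1G22190 took 19.9, 18.5 and 20.8% of the reads after 4 h and 26.5, 21.6 and 23.3% after 0 h, which overlap in no library. AT1G36060 took 6.97, 10.8 and 7.12% after 4 h and 13, 9.82 and 12.5% after 0 h, which overlap.

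**Figure D3:**
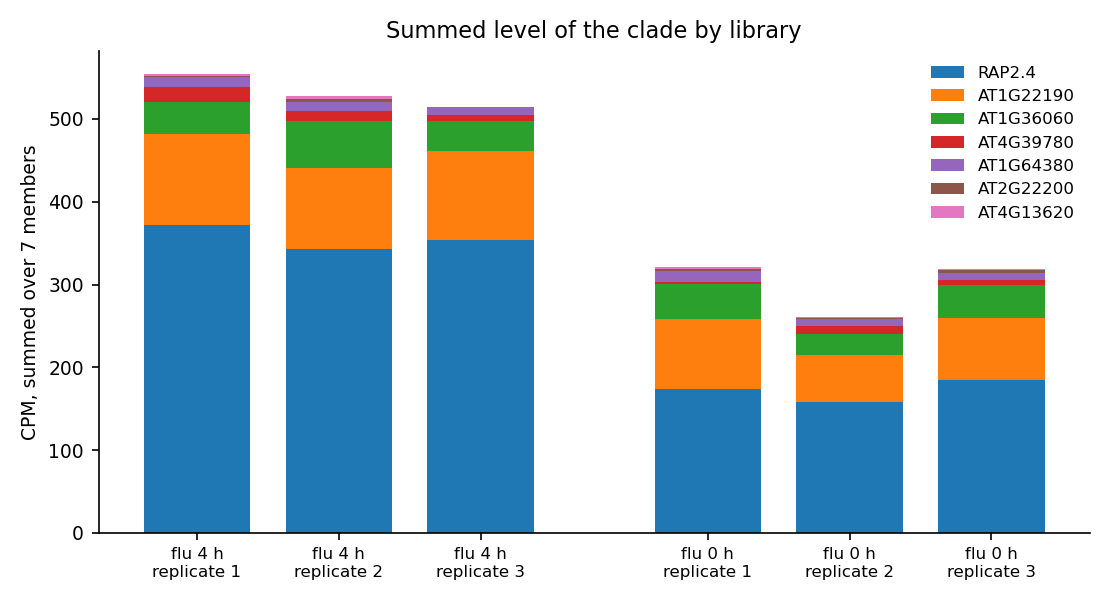
Summed CPM of the 7 measured clade members in each library, *flu* 4 h left of *flu* 0 h, stacked by member. The sum is 514 to 555 CPM after 4 h and 261 to 321 CPM after 0 h, and RAP2.4 is the largest block in every bar.

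Within each library the 3 most-read members were set against each other, which needs no scaling between libraries. The ratio of RAP2.4 to AT1G22190 reads was 3.38, 3.52 and 3.31 after 4 h and 2.04, 2.80 and 2.49 after 0 h, higher in every 4 h library, with a log2 difference of 0.49. For RAP2.4 and AT1G36060 the ratios were 9.61, 6.03 and 9.68 against 4.18, 6.16 and 4.64, which overlap (log2 difference 0.74). For AT1G22190 and AT1G36060 they were 2.85, 1.71 and 2.92 against 2.04, 2.20 and 1.86, which overlap as well (0.26). The exact two-sided permutation test of such ratios cannot go below p = 0.1 with 3 against 3, so its values for the 3 pairs (0.1, 0.2 and 0.4, or 0.3, 0.3 and 0.4 after adjustment) decide nothing, and whether RAP2.4 and AT1G22190 changed by different amounts is not settled by it.

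The 3 genes whose log2 CPM followed RAP2.4 most closely over the 6 libraries, of 3610 genes with a mean of at least 50 reads, were HTB9 (AT3G45980, Pearson r 0.999), ASN1 (AT3G47340, 0.998) and UGT85A1 (AT1G22400, 0.998). HTB9, a histone H2B gene, had 801, 765 and 778 CPM after 4 h against 512, 474 and 539 CPM after 0 h. ASN1, an asparagine synthetase known as a gene of darkness and low sugar, had 4251, 3305 and 3663 against 1091, 936 and 1163 CPM. UGT85A1, a glycosyltransferase that acts on cytokinins, had 461, 393 and 433 against 172, 166 and 189 CPM. Each of these genes separated the same pair of groups as RAP2.4 did, and the libraries share that split, so these r are a description and carry no p.

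The other DREB factors (groups A-1 to A-5) are the nearest relatives of the clade. Of the 47 listed, 28 were in the table and tested, with 3 higher and 2 lower, near the 8.37% and 8.18% of all genes, a median log2 fold change of 0.16 and fitted values from -4.94 to 2.66. In group A-5, of small factors that include repressors, 2 of 11 rose and 2 fell. RAP2.9 rose, at 83.3, 82.2 and 86.0 CPM after 4 h against 39.7, 38.0 and 39.9 CPM after 0 h (log2 fold change 1.10, SE 0.19, adjusted p = 0.000149 by edgeR). AT1G71520 rose at 34 reads over the 4 h group and 6 over the 0 h group (2.66, SE 0.68, adjusted p = 0.00675 by edgeR). Without 0h replicate 2 it was 3.46 and without 0h replicate 1 it was 2.12, called both times, and DESeq2 gave it no adjusted p. The other way, ORA47, a regulator of jasmonate synthesis, had 1 read over the 4 h group and 49 over the 0 h group. The ratio of 0 h over 4 h was 42, with an interval of 7.19 to 1690 from counting alone, without the spread between replicates. AT5G21960 had 3 and 44 reads, a ratio of 12.6 (4.03 to 63.2, also from counting alone) in the same direction. Both were called lower by edgeR, also without any single library, and DESeq2 gave neither an adjusted p. The fitted log2 fold change of ORA47 was -6.99 without 4h replicate 2 and -4.11 without 4h replicate 1.

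In group A-4, 1 of 12 rose, AT4G32800, with 30.5, 19.0 and 15.8 CPM after 4 h against 7.95, 10.8 and 6.88 CPM after 0 h (1.38, SE 0.33, adjusted p = 0.0045 by edgeR). Its call was lost without 4h replicate 1 (1.01, adjusted p = 0.0926). TINY2 (log2 fold change 1.70), AT2G44940 (0.70) and AT1G63040 (0.69) did not pass in the same group, and AT1G63040 passed without 4h replicate 1 (0.97, adjusted p = 0.0403 by edgeR). In group A-2 4 of the 8 listed genes were tested and 0 passed, and the drought factors DREB2A and DREB2B were not analysed here. The estimate was 0.58 for AT1G75490 and -0.35 for AT3G57600. DREB19 was at 1.08, but at 2.47 without 0h replicate 2, and DREB2C at 0.04 turned to -0.23 without 0h replicate 1 and to -0.31 without 4h replicate 1. In group A-1, the cold-response factors, 1 of 6 was tested, CBF2, which had 22 reads over the 4 h group and 7 over the 0 h group and did not pass (1.78, SE 0.74, adjusted p = 0.103 by edgeR). The 1 listed member of group A-3 was not analysed here. The clade's 2 of 7 called higher stand beside 3 of 28 here, and the difference between these counts was not tested.

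**Figure D4:**
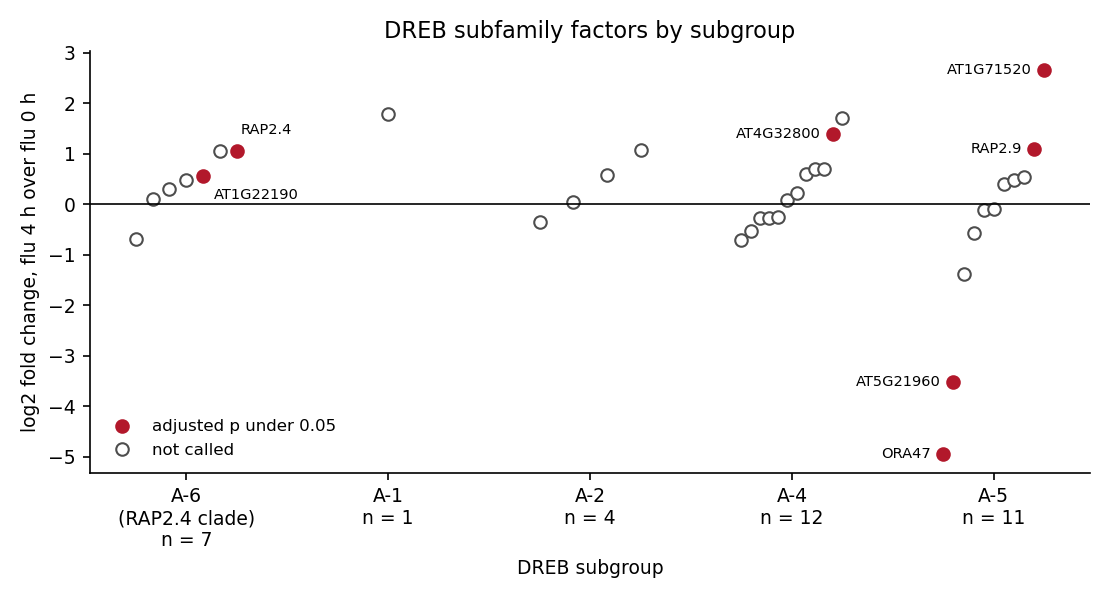
Log2 fold change, *flu* 4 h over *flu* 0 h, of each tested DREB factor by group, with filled points for genes past the test. The clade runs from -0.70 to 1.05, and the other groups together run from -4.94 to 2.66 with calls in both directions. The points of ORA47 and AT5G21960 rest on 1 and 3 reads in the 4 h group, and their fitted size is no bound.

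Genes of the processes that clade members are known for moved in different directions. These genes were chosen by function, but with earlier results of these data known. Of the chloroplast antioxidant genes, 9 of 10 were tested and 0 rose while 3 fell (median log2 fold change -0.21), where 8.37% of all genes rose and 8.18% fell. DHAR3, the chloroplast dehydroascorbate reductase, had 93.7, 96.6 and 63.3 CPM after 4 h against 146, 170 and 146 CPM after 0 h (-0.85, SE 0.18, adjusted p = 0.00143 by edgeR). The peroxiredoxin gene AT3G52960 had 135, 185 and 192 against 287, 346 and 271 CPM (-0.83, SE 0.17), and 2-Cys Prx B had 163, 183 and 143 against 240, 269 and 260 CPM (-0.65, SE 0.16). PRXQ did not pass (-0.44). The 2-Cys peroxiredoxin A gene AT3G11630, the known target of AT1G36060, had 734, 891 and 952 CPM after 4 h against 723, 845 and 820 CPM after 0 h and was not called (0.11, SE 0.14, adjusted p = 0.667), and is named after its value was seen.

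Of the dehydration genes listed for the DRE, 11 of 12 were tested, and 4 rose and 0 fell (median 0.41). Whether each of their promoters holds a DRE was not examined here. For this list and the next, the share over all genes was 8.37% higher and 8.18% lower. COR413IM1, a chloroplast inner membrane protein, had 206, 211 and 218 CPM after 4 h against 101, 152 and 104 CPM after 0 h (0.82, SE 0.17, adjusted p = 0.00129 by edgeR). The dehydrins ERD14 (0.74, SE 0.13) and COR47 (0.60, SE 0.13) and the drought gene LTI78 (0.86, SE 0.20) also rose. Of the shoot regeneration factors, 4 of 9 were tested and 1 rose, Rap2.6L (AT5G13330), a wound-responsive ERF, with 171, 138 and 142 against 41, 62.1 and 70.2 CPM (1.39, SE 0.19, adjusted p = 1.22e-05 by edgeR). AIL5 (0.19), AT5G61890 (-0.53) and LBD16 (-0.62) did not pass. LBD16 was at -1.62 without 4h replicate 1. AIL5 was at 0.90 without 0h replicate 2, at 0.63 without 4h replicate 3 and below 0 without any other single library.

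Of the wax genes, 6 of 7 were tested, and 0 rose and 2 fell (median -0.53). CER1, needed for alkane synthesis, had 5, 3 and 0 reads after 4 h and 17, 22 and 16 after 0 h. In CPM it had 2.28, 2.71 and 0 after 4 h against 10.4, 11.3 and 11.0 after 0 h (-2.53, SE 0.55, adjusted p = 0.00183 by edgeR). Its 4 h reads lay near or under the limit of 3 reads, so the fitted size of the fall is uncertain. KCS6, which extends very long chain fatty acids, had 142, 162 and 173 against 195, 398 and 212 CPM (-0.77, SE 0.20, adjusted p = 0.00984), and without 0h replicate 2, its highest library, it was -0.34 and not called (adjusted p = 0.186). KCS5 (-0.84) and CER3 (-0.29) did not pass, and KCS5 passed without 4h replicate 3 (-1.20, adjusted p = 0.0359 by edgeR). Over these 4 lists 5 of 30 tested genes rose and 5 fell, beside 8.37% and 8.18% of all genes. Each count of 0 among these lists and in DREB group A-2 was also 0 at an unadjusted p under 0.05 in edgeR and by DESeq2 and limma-voom.

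The call for RAP2.4 was kept in all 18 alternative settings, with log2 fold changes between 0.97 and 1.11, 6 of them with 1 library left out (1.01 to 1.11). AT1G22190 kept its call in 10 of the 18, and AT4G39780, not called in the edgeR fit, passed in 2. AT1G36060 and AT1G64380 passed in 0 of 18. AT2G22200 could be fitted in 14 and AT4G13620 in 15 of the alternatives and passed in 0 of them, with no adjusted p for either from DESeq2.

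**Figure D5:**
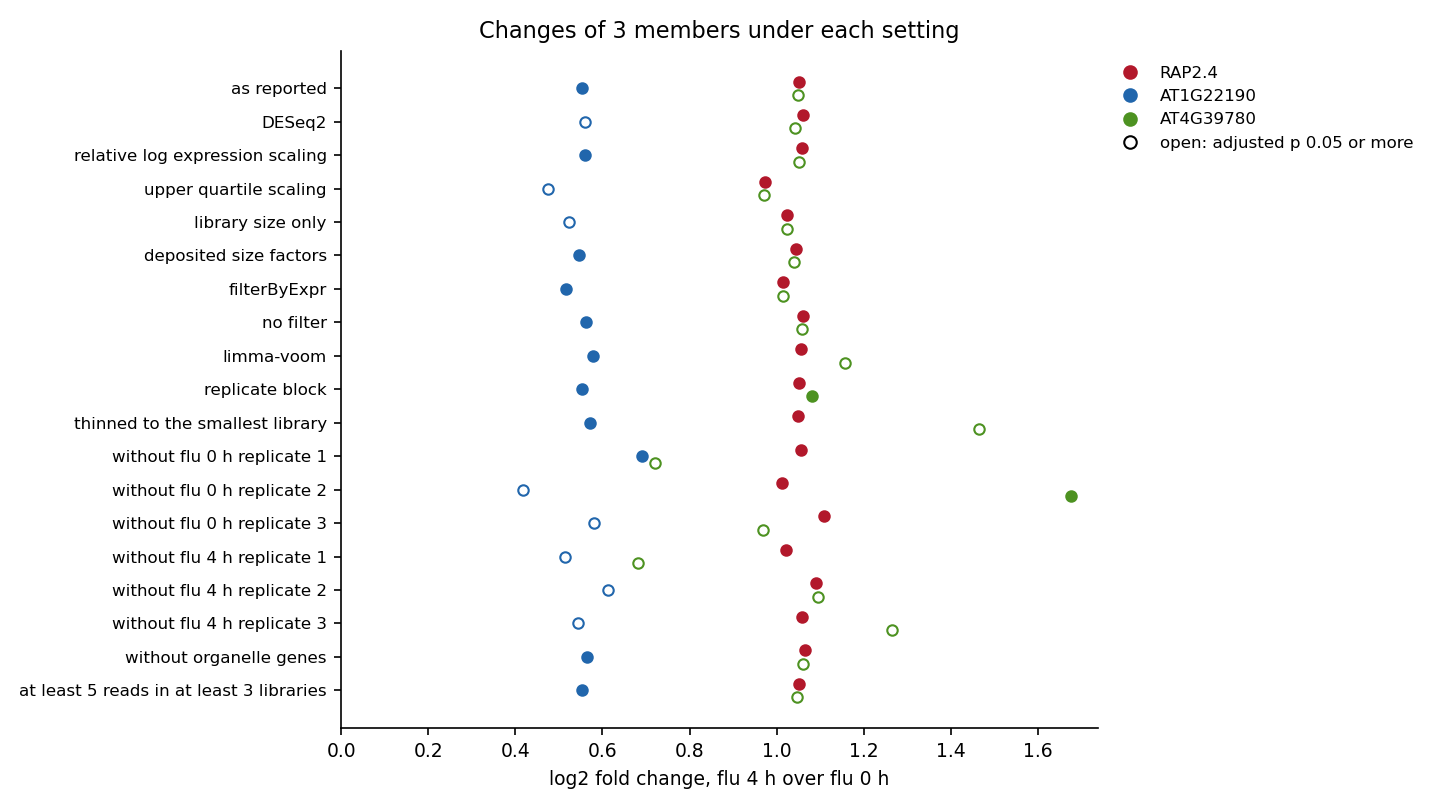
Log2 fold change of RAP2.4, AT1G22190 and AT4G39780, *flu* 4 h over *flu* 0 h, under the edgeR fit and each alternative setting, with filled points where the adjusted p is under 0.05. RAP2.4 stays between 0.97 and 1.11 and is called throughout, and AT1G22190 stays above 0 (0.42 to 0.69) with its call lost in 8 of 18 alternatives.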

How the data were processed

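RNA of whole *flu* 1-1 seedlings was extracted with Trizol, made into bulk MARS-seq libraries, which capture transcript 3′ ends, and sequenced on a NextSeq instrument. Tools in the submitters' processing notes were STAR, HTSeq, cutadapt 1.8.3, bcl2fastq 2.17.1.14, DESeq2 and DESeq, and the methods give an Araport reference. The authors deposited raw read counts per gene, without a filter on molecular identifiers, so reads may include amplification copies. They also deposited a size-factor-scaled signal, whose factors served here as an alternative scaling, and regularised log2 values, not used. Columns of the authors' own comparisons were not used. Groups came from the sample titles. A treatment label words the hours as exposure to light and a data list of the study assigns the series to cycloheximide, and the titles and the protocol were followed. The methods describe 3 biological replicates per treatment, each a pool of whole seedlings. The labels say nothing of separate cultures, and the p-values reflect how far these samples differ. Growth was in continuous light per the labels and in a cycle of light and darkness per the methods.

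Genes reaching 5 reads in 1 library or more (10622, with 545 falling short) entered edgeR's quasi-likelihood test (edgeR 4.0.16, R 4.3.3) after TMM scaling, 4 h over 0 h and without covariates, with Benjamini-Hochberg adjustment over all of them and a threshold of 0.05. The SE was taken as the log2 fold change divided by the root of the F statistic. Intervals are 95%. The fit was tested on simulated data. Replicates of a group differed beyond sampling noise (chi-square per degree of freedom 3.17 to 6.20). Same-numbered libraries did not deviate together (correlations -0.012, 0.041 and 0.061). Alternatives were DESeq2 1.42.0, limma-voom (limma 3.58.1), other scalings and filters, a replicate block, thinning and leaving out each library. A filter of 5 reads in 3 libraries was added after seeing the data. Sequences and positions came from the RefSeq TAIR10.1 genome and annotation, in which 11108 identifiers matched and 59 organelle genes did not. Coding identity and permutation tests used Biopython 1.88 and scipy 1.17.1 in Python 3.11.15, and figures matplotlib 3.10.9. The members and lists were chosen with earlier results of these data known. Every member is named, up to 4 genes of each other list by smallest p, and the 3 genes most like RAP2.4, which was also the most-read member.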

Additional observations from a re-analysis of the deposited data

How the results depend on the processing

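The calls for 2 members became 1 with DESeq2, with upper quartile scaling and with library size alone, 3 with the replicate block, and 1 to 2 with single libraries left out. AT1G22190 missed the threshold with DESeq2 (0.56), upper quartile scaling (0.48) and library size alone (0.52), and lay between 0.42 and 0.69 with single libraries left out. AT4G39780 passed with the replicate block (1.08, adjusted p = 0.0498 by edgeR) and lay between 0.68 and 1.68 with single libraries left out. The cause was not tested. RAP2.4 kept its direction and call under all 18 alternatives. AT1G64380 turned sign when thinned (-0.20), without 0h replicate 2 (-0.01) and without 4h replicate 1 (-0.01). Calls among the other DREB factors went to 2 with DESeq2, whose independent filter left 13 of 28 with no adjusted p, AT1G71520, ORA47 and AT5G21960 among them, and were 5 to 6 with single libraries left out. Calls in the process lists stayed at 10 to 12. Over all genes 1211 to 1979 were called, 1979 with the replicate block. The median log2 fold change over all genes was -0.06 and lay between -0.14 (upper quartile scaling) and -0.01. Depth limits the rarely read members, whose reads in single libraries were between 0 and 6 for AT4G13620 and AT2G22200.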
